A study of Mus musculus with 8 samples.

Results

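The genes of the interleukin-1 (IL-1) family and its antagonists examined here were the 7 mouse genes Il1a, Il1b, Il1rn, Il18bp, Il1r1, Il1rap and Il1r2, taken by matching the identifiers of the 49315 rows of a count table to gene symbols. All 7 passed the filter on low counts and were among 13051 genes tested. The study asked how knockdown of the macrophage long non-coding RNA MAARS changes the transcriptome of bone marrow-derived macrophages (BMDMs). RNA-seq libraries of ribodepleted total RNA were compared between 4 libraries of cells transfected with a control gapmeR (replicates 2, 5, 6 and 7) and 4 of cells transfected with a MAARS gapmeR (replicates 9, 11, 13 and 15). GapmeRs are short antisense oligonucleotides that direct cleavage of the RNA they pair with.

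Both groups were grown from C57BL/6 bone marrow (femur and tibia) in IMDM with 10 ng/ml mouse M-CSF, and received 25 nM gapmeR with Lipofectamine 3000. The control was the negative control #1 gapmeR, so transfection with lipid and oligonucleotide was shared by all 8 libraries, and no untransfected cells were among the samples. The groups differ in gapmeR sequence as well as in MAARS level, and effects of these cannot be told apart here. The time from transfection to lysis is not given in the labels, which also do not say whether replicates came from separate mice or separate dishes, so the p-values below measure the spread between these libraries, which may be technical. The control libraries held 19287279 to 20567123 counts and the MAARS gapmeR libraries 20839671 to 24541205. MAARS itself, annotated as Gm14461, fell from 13.1 ± 1.36 to 6.82 ± 0.844 CPM (counts scaled to the size of the library; mean ± SD, n = 4 libraries a group here and throughout), a log2 fold change of -0.95, with no overlap between groups. In whole cultures such as these, fewer cells of a type and less RNA per cell cannot be told apart.

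IL-1α and IL-1β are the agonists of the family and act on the same receptor, IL-1R1, which must recruit the accessory chain IL-1RAP before it can signal through MYD88. The pathway is braked at several levels: IL-1RN, the IL-1 receptor antagonist, occupies IL-1R1 without recruiting IL-1RAP, IL-1R2 is a decoy receptor with no signalling domain, and IL-18BP is a secreted protein that traps IL-18, a sister cytokine of IL-1. Macrophages are a main source of these ligands and antagonists, and IL-1β is known as a driver of inflammation in atherosclerotic lesions.

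Il1a and Il1b lie side by side on the minus strand of chromosome 2 (GRCm38), at chr2:129299610-129309972 and chr2:129364570-129371139, separated by 54.6 kb. Il1rn lies on the same chromosome at chr2:24336853-24351494 on the plus strand. MAARS is also on chromosome 2, 51.0 Mb from Il1a, 51.1 Mb from Il1b and 53.9 Mb from Il1rn. Il1r2 (chr1:40074079-40125231) and Il1r1 (chr1:40225080-40317257) are plus-strand neighbours 99.8 kb apart on chromosome 1. Il1rap is at chr16:26581704-26730117 on the plus strand and Il18bp at chr7:102014885-102018690 on the minus strand. Of the neighbours, Il1a and Il1b had fold changes of similar size, whereas Il1r2 passed the test and Il1r1 did not, as the values below show.

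The promoters of the 2 agonist genes and of Il18bp, the member with the lowest log2 fold change, are shown so that their core elements can be compared directly. The windows, from RefSeq on GRCm38.p6, run from 250 bases before to 50 bases after the annotated start, 5′ to 3′ on the strand of the gene. They are chr2:129309923-129310222 for Il1a, chr2:129371090-129371389 for Il1b and chr7:102018183-102018482 for Il18bp, all on the minus strand. Capitals mark a TATA motif (TATAAA) in Il1a and Il1b and a C/EBP motif (TTGCNNAA) in Il18bp.
Il1a promoter: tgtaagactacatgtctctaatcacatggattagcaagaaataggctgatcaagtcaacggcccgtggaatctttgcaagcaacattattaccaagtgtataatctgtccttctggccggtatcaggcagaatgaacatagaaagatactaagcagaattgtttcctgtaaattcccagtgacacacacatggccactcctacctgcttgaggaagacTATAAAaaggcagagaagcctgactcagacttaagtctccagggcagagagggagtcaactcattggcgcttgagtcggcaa
Il1b promoter: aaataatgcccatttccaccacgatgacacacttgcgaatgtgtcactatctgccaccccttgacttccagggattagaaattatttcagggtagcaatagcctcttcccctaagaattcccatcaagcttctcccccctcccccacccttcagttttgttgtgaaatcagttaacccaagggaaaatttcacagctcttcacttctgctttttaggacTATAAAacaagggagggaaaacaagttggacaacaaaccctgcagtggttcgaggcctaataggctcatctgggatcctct
Il18bp promoter: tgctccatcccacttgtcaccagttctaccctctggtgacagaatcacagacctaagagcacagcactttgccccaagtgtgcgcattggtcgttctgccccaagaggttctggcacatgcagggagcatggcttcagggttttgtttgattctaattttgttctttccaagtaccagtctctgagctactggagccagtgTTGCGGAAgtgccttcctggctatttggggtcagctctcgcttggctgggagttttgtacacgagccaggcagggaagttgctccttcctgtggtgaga
The TATA motif began 32 bases before the start in Il1a and 31 bases before it in Il1b, and 13.6% of the 32851 mouse promoter windows held that motif at any place on either strand. The C/EBP motif of Il18bp began 49 bases before the start and was present in 10.8% of all windows. In all, 5 motifs were searched on both strands in the 10 windows of the 7 genes, the others being an interferon-stimulated response element (ISRE, GAAANNGAAA, in 3.44% of all windows), a gamma-activated site (GAS, TTCNNNGAA, in 8.30%) and the kappaB motif (in 8.46%). Il1rap had an ISRE match from 21 to 30 bases after its start, Il1r2 a GAS match from 111 to 103 bases before it, and 1 window of Il1r1 a kappaB match. A C/EBP match was also present in the other window of Il1r1, from 133 to 126 bases before the start, and a TATA match on the opposite strand in 1 of the windows of Il1rn, from 15 to 20 bases after the start. These are matches of letters and say nothing on their own of binding.

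The 3′ untranslated regions were read because the study also examined HuR, an RNA-binding protein that recognises AU-rich elements, which many cytokine transcripts carry. The heptamer TATTTAT, the DNA spelling of such an element, occurred 3 times in the longest annotated 3′ region of Il1a (1101 bases) and 3 times in that of Il1b (459 bases). It occurred in 26.8% of genes with a 3′ region within 20% of the length of that of Il1a and in 10.9% of genes matched in the same way to Il1b. Il1rap held 3 copies in 2676 bases and Il1r1 2 copies in 3864 bases, lengths at which 49.5% and 59.5% of genes have at least 1. No copy was found in Il1rn (1864 bases, a length at which 38.7% of genes have at least 1), in Il18bp (861 bases, 20.4%) or in Il1r2, whose annotated 3′ region of 24 bases leaves almost no room for one (2.08%). The 30-base windows with most copies, on GRCm38, are chr2:129300103-129300132 for Il1a, chr2:129364802-129364831 for Il1b and chr16:26715673-26715702 for Il1rap, with the heptamer in capitals.
Il1a 3′ window: tctatgTATTTATaaataTATTTATgataa
Il1b 3′ window: cttaccTATTTATTTATgTATTTATtgatt
Il1rap 3′ window: taatggagatcaTATTTATaaacttgaaaa
Within 30 bases Il1a held 2 copies and Il1b held 3 copies, 2 of them overlapping, whereas Il1rap held 1. The window of Il1r1 (chr1:40314927-40314956), which is not printed, also held 1. Whether the heptamer bears on the levels of these genes was not tested.

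Of the 7 genes, 6 fell with the MAARS gapmeR at an adjusted p under 0.05 (edgeR quasi-likelihood test, Benjamini-Hochberg adjustment over all genes tested), none rose in edgeR, DESeq2 or limma-voom, and Il1r1 did not pass. The background for these counts is high, since 45.4% of all genes tested passed in either direction, 24.0% as lower and 21.3% as higher. In each of the 6 genes the highest of the 4 MAARS gapmeR libraries was lower than the lowest of the 4 controls, which was true of 22.8% of all genes tested (42.1% had no overlap in either direction). Of the 6, 4 (Il18bp, Il1a, Il1r2 and Il1b) had a log2 fold change of -1 or lower. Among all genes tested, 3.14% had both such a value and an adjusted p under 0.05. Another 2.23% had an adjusted p under 0.05 and a log2 fold change of 1 or higher. The median log2 fold change was -1.56 over the 7 genes and 0.01 over all genes tested. All of these counts include Il1r2, which entered the test through the control group, where it was high. The 7 genes were chosen with earlier results of these data known, so these shares are descriptive only.

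**Figure D1:**
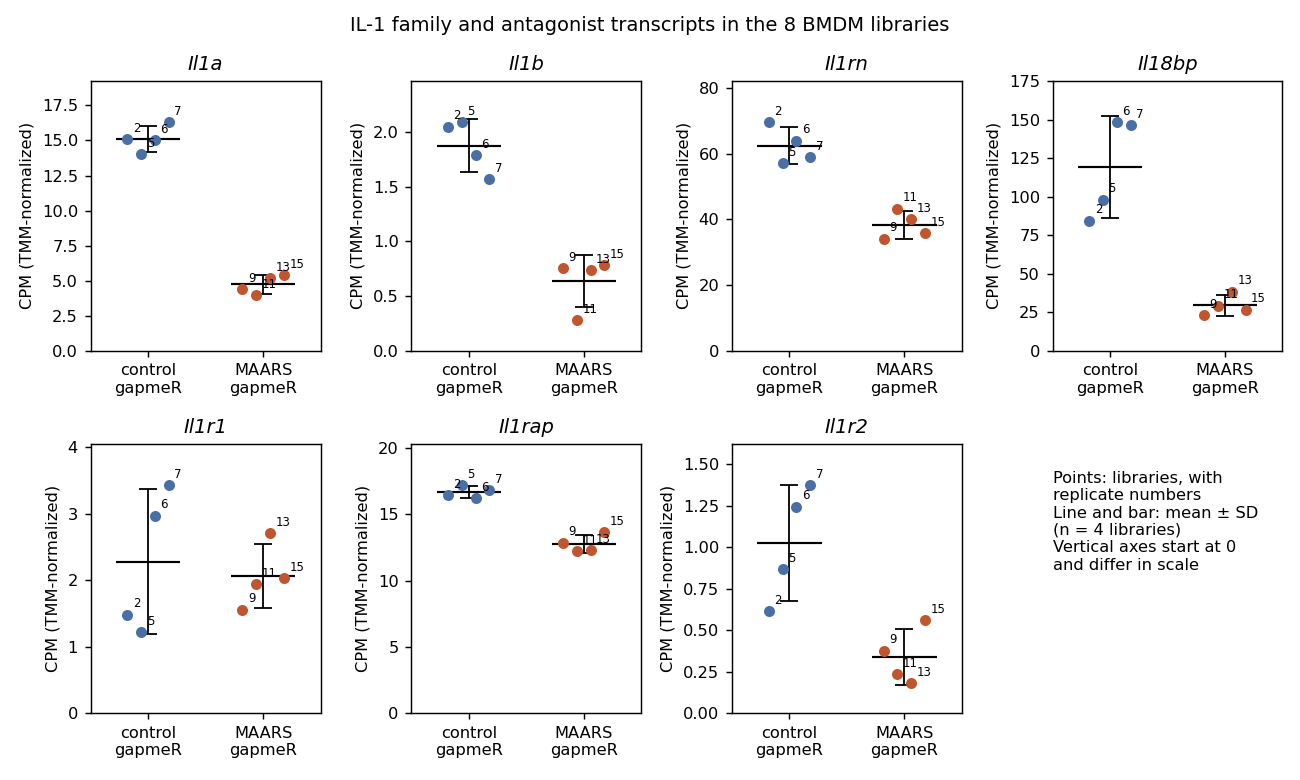
Level of each gene in CPM (vertical axis, from 0, a different scale in each panel) in the control and MAARS gapmeR groups. Points are libraries with their replicate numbers, lines are means and bars SD (n = 4); the groups are separate for every gene except Il1r1.

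Among the ligands, Il1a, which encodes the agonist IL-1α, was measured at 15.10, 14.01, 15.04 and 16.30 CPM in control replicates 2, 5, 6 and 7 and at 4.40, 3.98, 5.19 and 5.42 CPM in MAARS gapmeR replicates 9, 11, 13 and 15. The groups were far apart relative to their spread, with 15.1 ± 0.938 against 4.75 ± 0.673 CPM. Il1a fell by 68.6%, a log2 fold change of -1.67 (SE 0.110, 95% interval -1.91 to -1.43, edgeR adjusted p = 4.79e-06). Only 1.36% of genes tested had a log2 fold change as low or lower. Opposite-strand annotation covers 11.2% of its exonic sequence, and whether counting used strand is not given in the sources used here.

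Il1b, which encodes the agonist IL-1β, was a low-abundance transcript in these cells, with 40, 41, 33 and 32 reads in the control libraries and 16, 7, 16 and 18 in the MAARS gapmeR libraries, in the order of replicates given above. In CPM it was 2.05, 2.09, 1.78 and 1.57 against 0.757, 0.279, 0.735 and 0.780. No MAARS gapmeR library reached the lowest control, and replicate 11 was well below its 3 companions. The gene fell by 66.1%, from 1.87 ± 0.242 to 0.638 ± 0.240 CPM (log2 fold change -1.56, SE 0.287, 95% interval -2.19 to -0.93, edgeR adjusted p = 0.00112). Without replicate 11 the log2 fold change was -1.30.

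The other ligands of the family were nearly silent apart from Il18, which encodes the cytokine that IL-18BP neutralises. Of 7 further ligand genes, 5 (Il33, Il1f5, Il1f6, Il1f8 and Il1f10) had no count in any library, where a count of 0 allows up to 0.119 CPM in the deepest and 0.162 CPM in the shallowest library by counting error. Il1f9 had too few counts to be tested. Il18 was 16.9, 23.3, 24.2 and 19.6 CPM in the control libraries and 14.1, 11.3, 14.2 and 14.1 CPM in the MAARS gapmeR libraries. It fell by 36.1% without overlap of the groups (log2 fold change -0.65, SE 0.119, edgeR adjusted p = 0.00113).

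Of the antagonists, Il1rn, which encodes the receptor antagonist, was measured at 69.6, 57.2, 64.0 and 59.0 CPM in the controls and at 34.2, 43.3, 40.0 and 35.8 CPM with the MAARS gapmeR. The groups did not overlap, and Il1rn fell by 38.6%, from 62.4 ± 5.56 to 38.3 ± 4.14 CPM (log2 fold change -0.70, SE 0.0839, 95% interval -0.89 to -0.52, edgeR adjusted p = 6.02e-05). Its decrease was smaller in size than that of either agonist gene, a difference tested below as a ratio. Counts per gene do not separate the secreted form of the antagonist from its intracellular forms, which share most exons.

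Il18bp had the lowest log2 fold change of the 7 genes. It was 84.4, 98.1, 148.3 and 146.6 CPM in the controls and 23.1, 29.2, 38.4 and 26.7 CPM with the MAARS gapmeR. The control libraries split into a lower pair (replicates 2 and 5) and a higher pair (6 and 7), yet the lowest of them was still above the highest MAARS gapmeR library. Il18bp fell by 75.4%, from 119.4 ± 32.9 to 29.3 ± 6.52 CPM (log2 fold change -2.02, SE 0.197, 95% interval -2.46 to -1.59, edgeR adjusted p = 1.57e-05), and 0.965% of genes tested had a value as low or lower.

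Among the receptor genes, Il1rap and Il1r2 passed as lower and Il1r1 did not. The ratio of Il1rap to Il1r1 did not pass either, as given below. Il1r1, the receptor that binds the ligands and signals, was at 1.48, 1.22, 2.97 and 3.44 CPM in the controls and 1.56, 1.95, 2.71 and 2.04 CPM with the MAARS gapmeR. The groups overlapped entirely, since the MAARS gapmeR values all lay within the range of the controls. Its log2 fold change was -0.14 (SE 0.318, edgeR adjusted p = 0.737), and the 95% interval, -0.84 to 0.55, includes a moderate decrease and a moderate increase.

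Il1rap, the accessory chain shared by several receptors of the family, was the steadiest of the 7 genes between replicates, at 16.4, 17.2, 16.2 and 16.8 CPM in the controls and 12.9, 12.2, 12.3 and 13.7 CPM with the MAARS gapmeR. The groups were separate although the shift was small, and Il1rap fell by 23.5%, from 16.7 ± 0.442 to 12.8 ± 0.659 CPM (log2 fold change -0.39, SE 0.0693, 95% interval -0.54 to -0.23, edgeR adjusted p = 0.000946). Membrane and soluble forms of the protein come from the same gene and were not told apart by these counts, and opposite-strand annotation covers 4.86% of the exonic sequence.

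Il1r2, the decoy receptor, was the least counted member, with 12, 17, 23 and 28 reads in the controls and 8, 6, 4 and 13 reads with the MAARS gapmeR. In CPM these were 0.614, 0.866, 1.24 and 1.38 against 0.378, 0.239, 0.184 and 0.563, so the groups were separate by a narrow margin between control replicate 2 and MAARS gapmeR replicate 15. Il1r2 fell by 66.4%, from 1.02 ± 0.348 to 0.341 ± 0.169 CPM (log2 fold change -1.57, SE 0.386, 95% interval -2.42 to -0.73, edgeR adjusted p = 0.00639). It reached the level the filter asks for in all 4 control libraries but in 1 MAARS gapmeR library, so it entered the test through the group in which it was high. Il1b reached that level in 4 and 3 libraries and the other 5 genes in all 8.

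The order of the transcripts can be compared between genes only per length, here as TPM, a level scaled by GENCODE exonic length. That length joins the exons of all annotated transcripts of a gene (1031 bases for Il18 to 11360 for Il1rap). It may differ from the length of the transcripts present, so the order below depends on it. In control libraries Il18bp was the highest at 125.9 ± 34.8 TPM, followed by Il18 at 64.9 ± 8.80, Il1rn at 36.1 ± 3.86, Il1a at 24.5 ± 2.08, Il1rap at 4.69 ± 0.153, Il1b at 3.14 ± 0.391, Il1r2 at 1.71 ± 0.589 and Il1r1 at 1.15 ± 0.557 TPM. Only the last pair of neighbours had overlapping ranges. With the MAARS gapmeR Il18, at 44.0 ± 4.31 TPM, was above Il18bp, at 32.8 ± 7.19 TPM, though these ranges overlapped, as did those of Il18bp and Il1rn, at 23.4 ± 2.64 TPM. At the lower end Il1b at 1.13 ± 0.421, Il1r1 at 1.10 ± 0.250 and Il1r2 at 0.604 ± 0.300 TPM overlapped with their neighbours in that order. In both groups the level of Il1a per length was above that of Il1b in every library.

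Because agonists and antagonists compete, the ratio of their counts was taken within each library and compared between groups with a two-sided exact permutation test over the 70 arrangements of the libraries, for 5 ratios. The smallest p that this test can give is 0.0286, and the 4 ratios that reached it had 0.0357 after Benjamini-Hochberg adjustment over the 5. The antagonists moved in opposite directions against their ligands. Il1rn to Il1a was 4.61, 4.08, 4.26 and 3.62 in the controls and 7.76, 10.9, 7.70 and 6.60 with the MAARS gapmeR, and this ratio rose by 0.97 on the log2 scale (exact permutation p = 0.0286). Il1rn to Il1b was 34.0, 27.4, 35.8 and 37.6 against 45.1, 155.4, 54.4 and 45.8, a rise of 0.91 on the log2 scale (exact permutation p = 0.0286). Replicate 11 with its 7 Il1b reads set the size of that rise, which was 0.51 without it, and with any 1 control library left out the exact permutation p was 0.0857.

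The ratio of Il18bp to Il18 was 4.99, 4.21, 6.14 and 7.46 in the controls and 1.64, 2.58, 2.71 and 1.89 with the MAARS gapmeR. It fell by 1.37 on the log2 scale with no overlap (exact permutation p = 0.0286). In counts Il18bp was thus above Il18 in every library of both groups. Scaled by exonic length, it was 1.44 to 2.54 times Il18 in TPM in the controls. With the MAARS gapmeR it was 0.558 to 0.924 times Il18. That scaling joins all annotated exons (3026 bases for Il18bp, 1031 for Il18), which may differ from the transcripts present. Whether Il18bp fell below Il18 depends on that length.

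For the receptors, Il1r2 to Il1r1 was 0.414, 0.708, 0.418 and 0.400 in the controls and 0.242, 0.122, 0.0678 and 0.277 with the MAARS gapmeR. This decoy to receptor ratio fell by 1.54 on the log2 scale (exact permutation p = 0.0286), resting on 4 to 28 Il1r2 reads a library. With 5 added to each count the difference was -1.13. Il1r2 also passed the filter on low counts through the control group, where it was high. With 1 control library left out the exact permutation p was 0.0571 to 0.0857. Per length, Il1r2 was above Il1r1 in every control library (1.33 to 2.36 times in TPM) and below it in every MAARS gapmeR library (0.226 to 0.922 times). In counts Il1r2 was below Il1r1 in every library, so this order depends on the joined exonic lengths (1908 bases for Il1r2, 6363 for Il1r1). Il1rap to Il1r1 was 4.90 to 14.1 in the controls and 4.54 to 8.24 with the MAARS gapmeR, and the difference of -0.35 on the log2 scale did not pass (exact permutation p = 0.429).

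**Figure D2:**
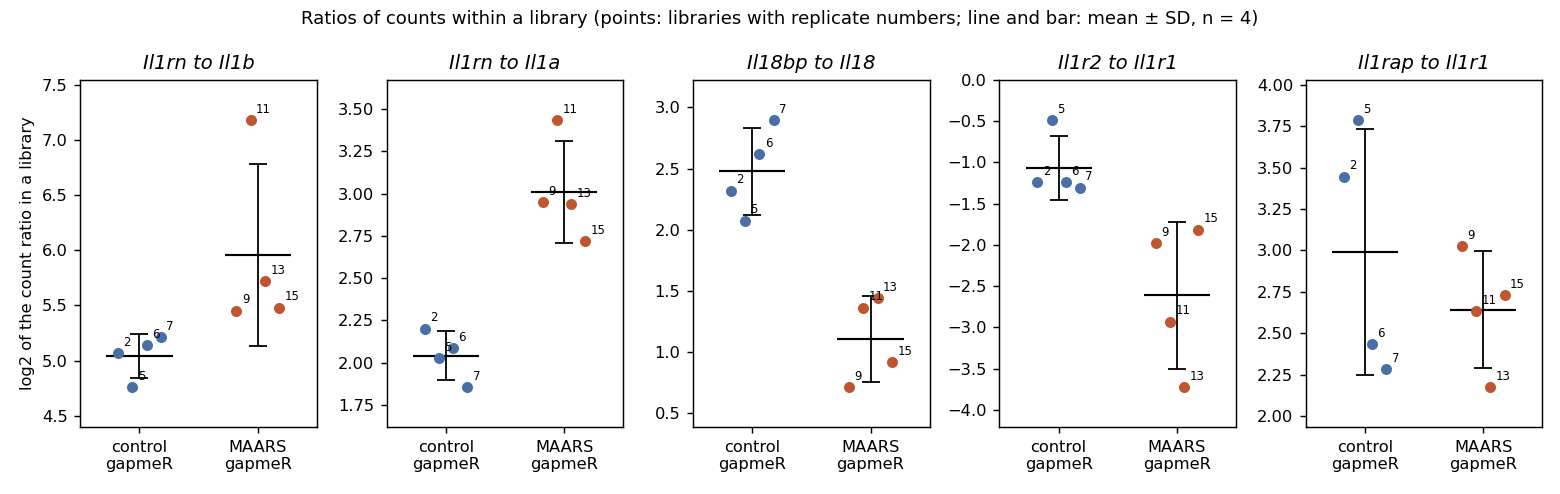
Log2 ratio of 2 counts within each library (vertical axis, 0.5 added to each count, a different scale in each panel) for control and MAARS gapmeR groups; points are libraries with replicate numbers, lines are means and bars SD (n = 4). The 2 ratios to an agonist are higher and the Il18bp to Il18 and Il1r2 to Il1r1 ratios lower with the MAARS gapmeR, while Il1rap to Il1r1 overlaps.

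The label of the cells was checked against marker genes. All 8 macrophage markers, among them Adgre1, Csf1r and Lyz2, were tested and abundant, with a summed level of 13836 to 17118 CPM in the controls and 17011 to 20241 CPM with the MAARS gapmeR. Of the 8, 5 rose and 2 fell, one of them Fcgr1 at a log2 fold change of -2.09. All 8 lymphocyte markers stayed under 10 reads in every library, and Cd3g was at 0. Dendritic cell markers summed to 1.48 to 3.35 CPM in the controls and 1.52 to 1.89 CPM with the MAARS gapmeR, and mast cell and basophil markers to 1.13 to 2.00 and 0.757 to 1.24 CPM. The 1 gene tested in each of these lists (Zbtb46 and Kit) did not pass. Endothelial markers summed to 17.2 to 22.1 CPM in the controls and at most 9.18 CPM with the MAARS gapmeR, and of 5 markers 3 were tested and Kdr fell (log2 fold change -1.54), whereas Cdh5 (-0.69) and Pecam1 (-0.19) did not pass.

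Markers of neutrophils and of fibroblasts and stroma varied between libraries in an order like that of Il1r1. Neutrophil markers summed to 141.6, 102.2, 180.9 and 300.6 CPM in the controls and 105.7, 129.9, 168.9 and 140.7 CPM with the MAARS gapmeR, and none of the 8 tested of 10 passed in edgeR, DESeq2 or limma-voom, nor had any an unadjusted edgeR p under 0.05. Stromal markers summed to 623.2, 459.6, 754.6 and 1047.4 CPM against 719.7, 922.2, 1237.5 and 772.1 CPM, and none of the 6 tested of 8 passed in edgeR (Pdgfrb alone had an unadjusted p under 0.05, and it passed as higher in DESeq2), with Lum and Thy1 too low to test. Among the controls, Il1r1 had the same order as both sums, lowest in replicate 5, then 2, 6 and 7. Among the MAARS gapmeR libraries its lowest and highest values, in replicates 9 and 13, were also those with the lowest and highest sums.

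Il1r2 and Il18bp were likewise higher in control replicates 6 and 7 than in 2 and 5. Within the MAARS gapmeR group, however, Il1r2 was lowest in replicate 13, which had the highest sums, while Il18bp was highest there. With the stromal sum as a covariate in edgeR the log2 fold changes were -1.73 for Il1a, -1.44 for Il1b, -0.74 for Il1rn, -2.27 for Il18bp, -0.36 for Il1rap and -1.67 for Il1r2. With the neutrophil sum they were, in the same order, -1.62, -1.63, -0.70, -1.84, -0.39 and -1.40. All 6 genes kept an adjusted p under 0.05 in both fits, the highest being 0.0155 for Il1r2. Il1r1 took opposite signs in them, at -0.51 (edgeR adjusted p = 0.0646) with the stromal sum and 0.27 (edgeR adjusted p = 0.303) with the neutrophil sum. Which cells the Il1r1 reads came from was not tested.

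**Figure D3:**
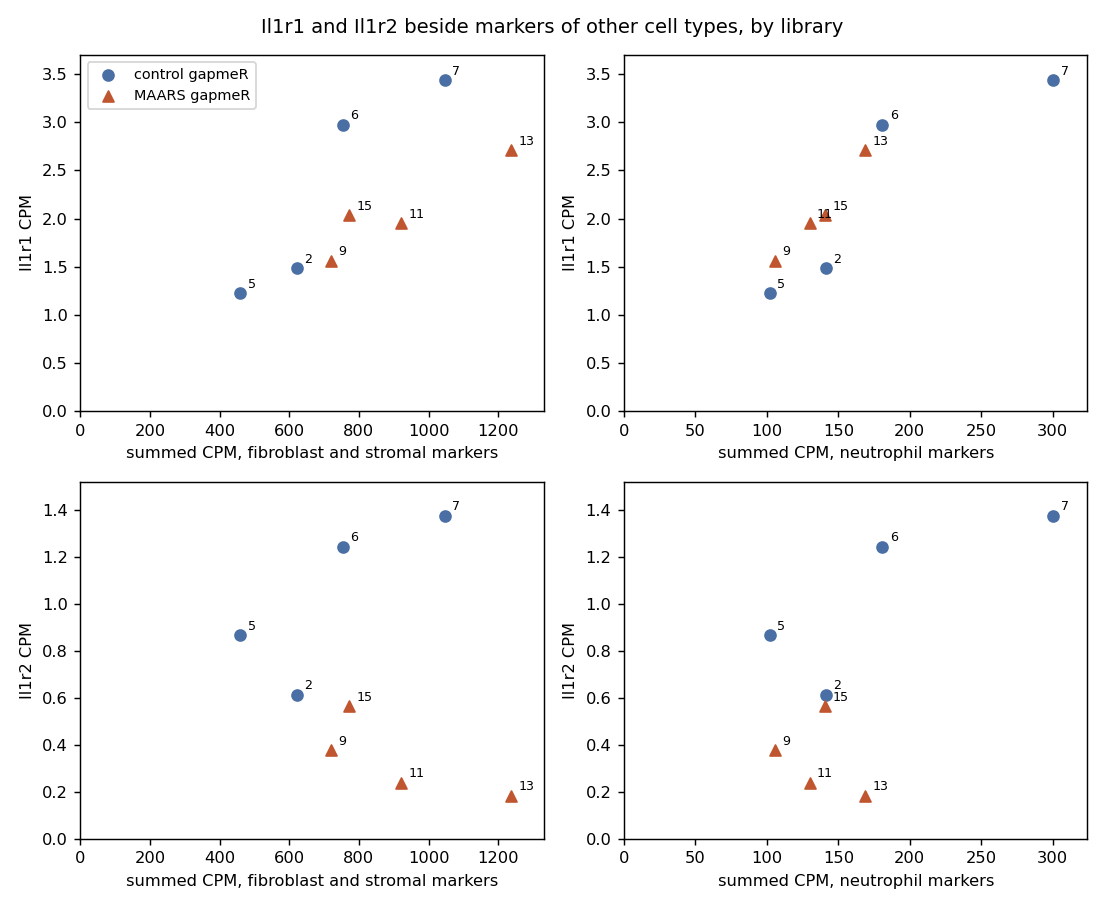
CPM of Il1r1 (upper panels) and Il1r2 (lower panels) against the summed CPM of stromal markers (left) and neutrophil markers (right); each point is a library, circles for control and triangles for MAARS gapmeR, with replicate numbers. Il1r1 is highest in control replicate 7, with 3.44 CPM, where the neutrophil sum is 300.6 CPM, while the groups do not overlap for Il1r2.

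Genes with the profile most like that of a member over the 8 libraries were sought for the 4 genes that fell by a log2 fold change of 1 or more, as the 3 with the smallest root mean square difference in centred log2 CPM. For Il18bp they were Fcgr1 (0.0952), the high-affinity receptor for IgG, Slfn8 (0.115), a Schlafen gene, and Slamf9 (0.122), a SLAM family receptor. By the same measure Il18bp itself departed from its own mean by 1.05. For Il1a they were Gm37787 (0.122), Cd300lf (0.158), an inhibitory CD300 receptor, and Ccrl2 (0.174), an atypical chemokine receptor, against 0.841 for Il1a itself. The nearest gene to Il1b was its neighbour Il1a (0.331), followed by Gm7115 (0.333) and Gm15931 (0.344). For Il1r2 the nearest were Pygm (0.234), Lag3 (0.248) and Trem1 (0.294). These values cannot be compared with those of Il18bp, since Il1r2 had 4 to 28 reads a library and Il18bp 488 to 2985. All of these genes also had a negative log2 fold change, which the measure of likeness selects for.

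Around the 7 genes, the pathway was described by lists of other receptors, signalling proteins, maturation and release factors, and genes that IL-1 is known to induce. These lists were chosen with earlier results of these data known, so their shares beside those of all genes are descriptive only. Of 7 further receptors of the family 4 were tested, and the median of these was 0.05 on the log2 scale. Il1rl1, the receptor for IL-33, was the only one past the threshold, at 0.473 ± 0.181 CPM in the controls and 0.923 ± 0.211 CPM with the MAARS gapmeR (log2 fold change 0.94, edgeR adjusted p = 0.0311), with overlapping groups. The call was lost with DESeq2, without the filter on low counts, with the neutrophil sum as a covariate and in 6 of the 8 fits that left out 1 library (replicates 2, 6, 7, 9, 13 and 15), where the edgeR adjusted p reached 0.0871.

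All 19 signalling genes were tested, 7 fell (36.8%, against 24.0% of all genes) and 2 rose (10.5%, against 21.3%), with a median of -0.10. Of the 7, Map3k7 and Tollip were marginal, with log2 fold changes of -0.12 and -0.14, and lost the call in 12 and 9 of 16 other settings, where the adjusted p reached 0.291 and 0.228. Myd88, the adaptor of IL-1 and Toll-like receptors, fell from 123.6 ± 12.9 to 67.5 ± 3.01 CPM (log2 fold change -0.87), and Irak2, a kinase recruited to it, fell by 0.54 on the log2 scale. Peli1 and Peli2 encode related ubiquitin ligases of this complex, and their log2 fold changes had opposite signs, at -0.51 for Peli1 and 1.12 for Peli2, both past the threshold. The kinases Irak1 (0.08) and Irak4 (0.08), and their family member Irak3 (0.05), did not pass, although Irak1 passed as higher with upper-quartile factors.

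Of the 11 genes for maturation and release 7 fell (63.6%, against 24.0% of all genes) and 2 rose (18.2%, against 21.3%), with a median of -0.23. Capn2, counted as lower (-0.13), and Capn1, counted as higher (0.13), which encode calpain subunits, lost the call in 10 and 8 of 16 other settings, where the adjusted p reached 0.293 and 0.125. Casp4, the sensor of cytosolic lipopolysaccharide also called caspase-11, fell from 74.2 ± 12.5 to 24.8 ± 2.61 CPM (log2 fold change -1.58). Casp1, which cleaves the precursors of IL-1β and IL-18, fell by 0.83 and the DNA sensor Aim2 by 0.46 on the log2 scale. Nlrc4, the core of an inflammasome that responds to bacterial flagellin, rose by 0.49, and the sensor Nlrp3 was lower by a log2 fold change of -0.23, a call that ended with upper-quartile factors, with the stromal sum as a covariate and in 6 of the 8 fits without 1 library (replicates 5, 6, 7, 9, 11 and 13).

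Of 15 genes that IL-1 is known to induce 11 were tested, 6 fell (54.5%, against 24.0% of all genes) and 1 rose (9.09%, against 21.3%), with a median of -0.54. Ccl2, a monocyte chemoattractant, fell from 68.9 ± 17.9 to 18.4 ± 3.20 CPM (log2 fold change -1.90), the adhesion molecule Icam1 fell by 1.02 and Tnfaip3, a feedback inhibitor of NF-κB, fell by 0.65 on the log2 scale. Ier3 was the gene that rose (log2 fold change 0.42). Il6 was barely counted, with 1 to 5 reads in the control libraries and none with the MAARS gapmeR, and was not tested. Cxcl1 was also too low to test and went the other way, with 2 to 7 reads in the controls and 5 to 16 with the MAARS gapmeR. Csf2 and Csf3 had no reads in any library. Many of these targets respond to other stimuli as well, so the list is not specific to IL-1.

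**Figure D4:**
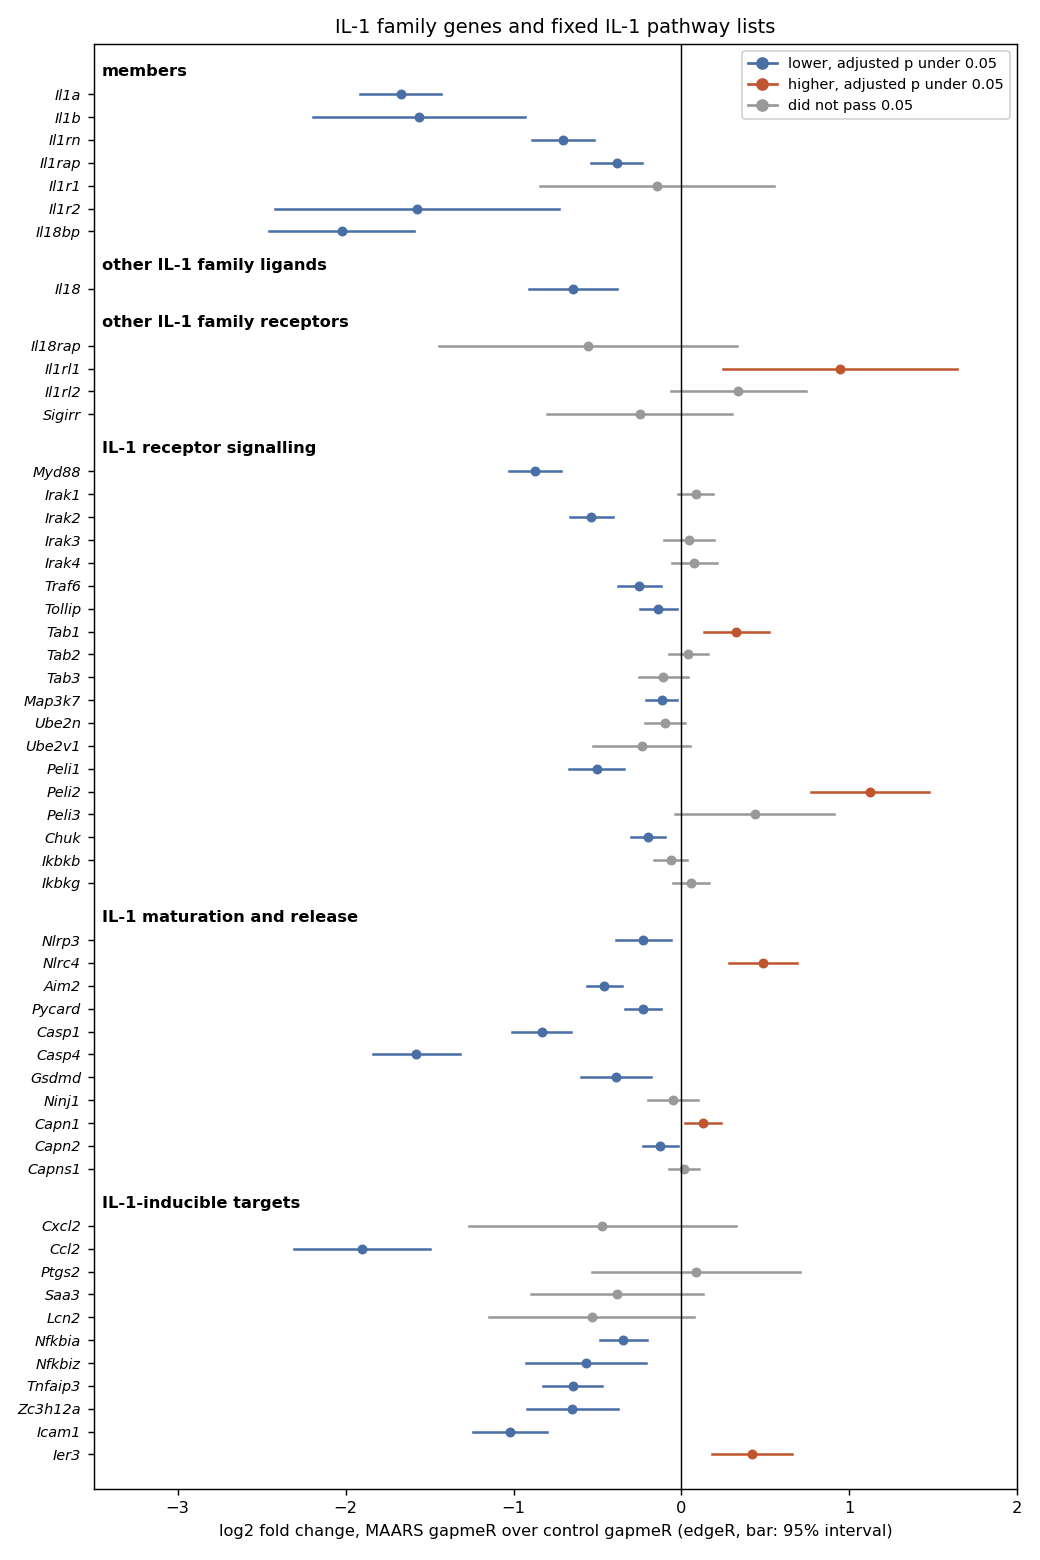
Log2 fold change of MAARS over control gapmeR (horizontal axis) for the 7 members and the tested genes of 5 pathway lists; points are edgeR estimates, bars 95% intervals, blue lower and orange higher at an adjusted p under 0.05, grey neither. Il18bp is lowest of the members at -2.02, and the signalling genes lie mostly within 1 unit of 0.

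Across 16 other settings, made up of 6 other scalings, filters or tests, 8 fits without 1 library and the 2 marker covariates, each of the 6 genes kept a negative log2 fold change and an adjusted p under 0.05. The lowest and highest log2 fold changes were -1.74 and -1.59 for Il1a, -1.68 and -1.30 for Il1b, -0.77 and -0.64 for Il1rn, and -2.27 and -1.84 for Il18bp. They were -0.42 and -0.32 for Il1rap and -1.93 and -1.38 for Il1r2, the latter with the highest adjusted p of the 6 genes, 0.0225 by edgeR without MAARS gapmeR replicate 11.

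**Figure D5:**
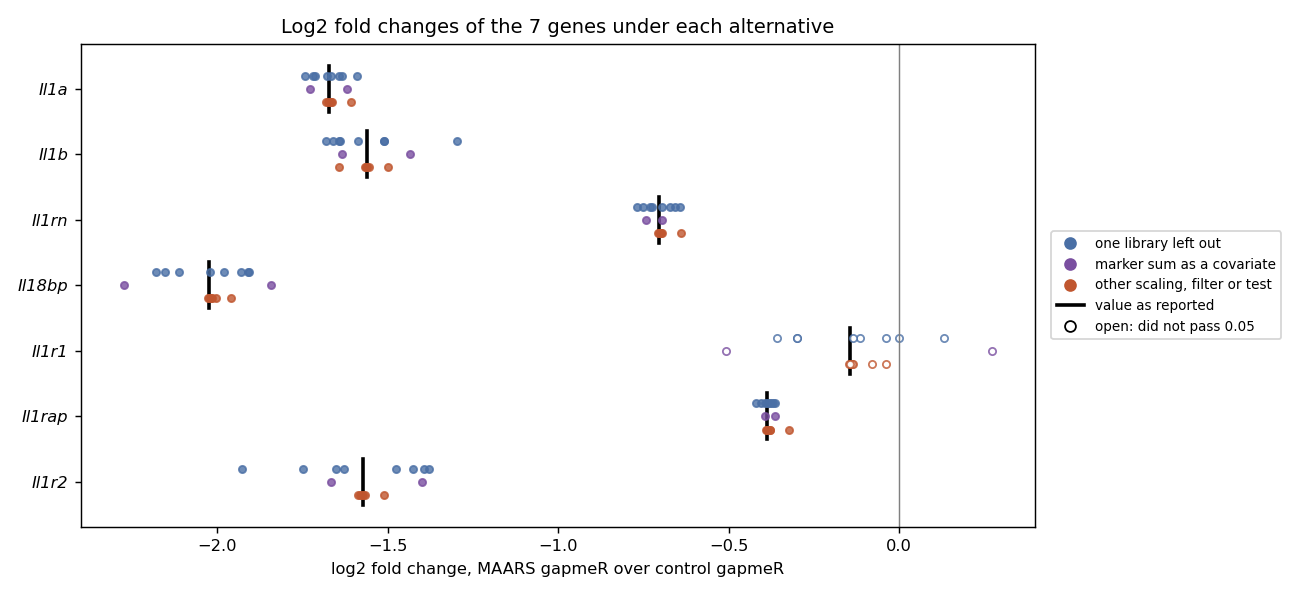
Log2 fold change of MAARS over control gapmeR (horizontal axis) of each gene as reported (black bars) and under 16 other settings (points, coloured by kind of setting, open where the adjusted p was not under 0.05). The points of 6 genes stay left of 0, with Il1rn and Il1rap closest to it, and those of Il1r1 lie from -0.51 to 0.27.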

How the data were processed

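RNA-seq counts were deposited by the authors as raw whole-number reads per gene for all 8 libraries, with no normalization. Per the labels and the submitters' processing notes, ribodepleted RNA was sequenced as paired reads, trimmed with Trimmomatic 0.36, aligned with STAR 2.5.2b to GRCm38 and counted with featureCounts of Subread 1.5.2. Strand and multimapping settings are not given in the sources used here, so genes that overlap on opposite strands may share reads. GENCODE M21 named 99.5% of rows, and 0 per-sample columns were left unused. The sequences read were the promoter windows and the GENCODE M21 transcripts, and no protein sequence was used.

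Genes were filtered with filterByExpr (minimum count 10, total 15), leaving 13051, and scaled by TMM (factors 0.955 to 1.03). They were tested with edgeR 4.0.16 (quasi-likelihood, Benjamini-Hochberg adjusted p under 0.05, R 4.3.3). That test gives no SE, so SE was taken as the absolute log2 fold change over the square root of its F statistic. The 95% intervals use that SE and a t quantile. The method was tried on simulated counts in which a far smaller share of genes changed than was called here. That trial therefore does not cover the scaling of these data. Intervals on counts of 0 use 3 counts and cover counting error only. Replicates differed by 3.19 to 10.2 chi-square units per gene, so none was a copy of another. Alternatives were DESeq2 1.42.0, limma-voom 3.58.1, other scalings and filters, and leaving out each library. The 2 fits with a marker sum (log2 summed CPM) as a covariate were chosen after seeing the data. Named were the 7 members, MAARS, Il18, genes of the 5 pathway lists (by default the 3 with the smallest p and an adjusted p under 0.05), and the 3 nearest profiles of each member changed by at least 1 on the log2 scale. Other marker and pathway genes (such as Peli1, Nlrc4, Kdr and Ier3) were named after their values were seen. The members and lists were chosen with earlier results of these data known.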

Additional observations from a re-analysis of the deposited data

Results flagged for a closer look

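Among 118 group profiles of 4 libraries examined, 10 had a library whose gap to its nearest neighbour was a larger share of the group range than Dixon's 95% critical value for 4 samples, where chance alone gives about 1 in 20 groups. Among the members this was Il1b in MAARS gapmeR replicate 11, at 0.279 CPM, and with it the log2 ratio of Il1rn to Il1b in the same library, at 7.18. The log2 ratio of Il1r2 to Il1r1 stood apart in control replicate 5, at -0.49. Replicate 11 was also apart for Il18, at 11.3 CPM, and for Il1rl2, the receptor of IL-36 cytokines, at 3.46 CPM. Replicate 13 was apart for Sigirr at 0.827 CPM and Saa3 at 4.92 CPM, replicate 15 for Nlrc4 at 12.4 CPM, and control replicate 2 for Ninj1 at 199.6 CPM and Ier3 at 12.1 CPM.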

How the results depend on the processing

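No paired analysis was possible because the control replicates (2, 5, 6 and 7) and the MAARS gapmeR replicates (9, 11, 13 and 15) share no number. The 6 members that fell kept their direction and an adjusted p under 0.05 under all 16 alternatives. Il1r1, which never passed, turned to 0.13 without control replicate 7 (leave-one-out range -0.36 to 0.13) and to 0.27 with the neutrophil covariate. Requiring an absolute log2 fold change of 1 reduced the genes called from 5919 to 701, by construction, and fits without 1 library called 5097 to 5621. The called other receptors went from 1 to 0 with DESeq2 and without the filter on low counts, and were 0 to 1 without 1 library; the cause was not tested. Without 1 library the log2 ratio of Il1rn to Il1b was 0.51 to 1.08 and that of Il1r2 to Il1r1 -1.81 to -1.17, with the exact permutation p above 0.05 when any control library was left out. Upper-quartile factors moved the share of higher calls from 47.0% to 60.4%, shifting the median log2 fold change by 0.06. Among the pathway genes, 3 below the threshold changed sign: Irak3 to -0.000398 with the neutrophil covariate, Ninj1 to 0.0143 with upper-quartile factors, and Ptgs2 to -0.12 without control replicate 5, to -0.13 without MAARS gapmeR replicate 13 (leave-one-out range -0.13 to 0.34) and to -0.28 with the stromal covariate. Low counts limit Il1b, Il1r1 and Il1r2.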
